A study of Mus musculus with 6 samples.

Results

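Described here are genes of the cell cycle and of DNA replication in cultured mouse hepatocytes, the parenchymal cells of the liver. The members were fixed as a list of 48 gene symbols: cyclins, cyclin-dependent kinases, kinase inhibitors, E2F factors, replication proteins and mitotic proteins. Of these, 45 had a row under their symbol in a table whose named rows stood for 15133 genes. The other 3 (Pcna, Ccnb1 and Mki67) were not analysed here. By role, 15 members act in the control of G1, 17 in replication and 13 in mitosis or its preparation. The rule itself uses no measured value, and no row was filtered out for a low level.

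Primary hepatocytes of male C57Bl6 mice, from 3 independent experiments with 1 animal each, were held in a collagen sandwich. After attachment in serum, all cultures were kept in serum-free medium with insulin, glucagon, hydrocortisone and antibiotics. For 48 hours 3 cultures were exposed to 10 µM cyclosporin A (CsA), an immunosuppressive drug that acts by inhibiting calcineurin through cyclophilin, and 3 to 0.5% DMSO, its vehicle. The labels give 48 hours both as the exposure and as the time of harvest after isolation, and whether the CsA cultures also held DMSO was not given in the sources used here. RNA of each culture was hybridised to 1 array, and the deposited levels are on the log2 scale of RMA, a method that corrects background, aligns the arrays and summarises probes. Array medians lay between 6.70 and 6.78, within-group correlations over all 16331 rows between 0.990 and 0.997, and between-group correlations between 0.969 and 0.981. The titles number the replicates 1 to 3 in both groups, and same-numbered arrays are set against each other below as pairs. The code that opens each title is the same for all 3 CsA arrays and differs between the 3 DMSO arrays, so it does not show such pairs.

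A cell leaves quiescence when D-type cyclins bind the kinases CDK4 and CDK6 and phosphorylate the retinoblastoma protein, which then lets go of E2F transcription factors. E2F activates genes that load the MCM helicase onto origins, make deoxynucleotides and build the replication fork, and cyclin B with CDK1 later drives mitosis. Mitotic genes are held down in resting cells largely through a promoter element called CHR, which the MuvB complex binds. Adult hepatocytes are mostly quiescent, can return to the cycle after loss of liver tissue, and in culture commonly move from quiescence towards G1 without entering S phase unless a mitogen is given.

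The promoters of 4 members are shown because these elements, and the genes that rose, fell or did not pass, recur below. Sequences are the 250 bases before the start site, from RefSeq on build GRCm38.p6, read 5′ to 3′ on the gene's strand. Capitals mark an E2F motif (TTTNNCGC), a CHR motif (TTTGAA) or a CCAAT box (CCAAT), each on either strand. An E2F match may overlap another match on the opposite strand, as it does in Mcm6. The windows lie at chr1:128359706-128359955 (minus strand) for Mcm6, chr5:138171884-138172133 (minus strand) for Mcm7, the more upstream of its starts, chr12:24708004-24708253 (plus strand) for Rrm2 and chr10:69352913-69353162 (minus strand) for Cdk1.
Mcm6: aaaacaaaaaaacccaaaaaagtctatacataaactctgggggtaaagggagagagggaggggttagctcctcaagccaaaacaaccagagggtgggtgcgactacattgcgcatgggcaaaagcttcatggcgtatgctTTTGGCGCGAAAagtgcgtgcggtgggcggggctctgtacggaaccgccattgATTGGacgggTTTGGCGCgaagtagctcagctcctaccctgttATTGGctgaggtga
Mcm7: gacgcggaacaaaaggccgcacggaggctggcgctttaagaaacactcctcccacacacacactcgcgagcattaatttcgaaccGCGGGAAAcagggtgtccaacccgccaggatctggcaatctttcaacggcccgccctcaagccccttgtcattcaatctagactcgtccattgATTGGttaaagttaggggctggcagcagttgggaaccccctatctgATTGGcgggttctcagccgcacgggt
Rrm2: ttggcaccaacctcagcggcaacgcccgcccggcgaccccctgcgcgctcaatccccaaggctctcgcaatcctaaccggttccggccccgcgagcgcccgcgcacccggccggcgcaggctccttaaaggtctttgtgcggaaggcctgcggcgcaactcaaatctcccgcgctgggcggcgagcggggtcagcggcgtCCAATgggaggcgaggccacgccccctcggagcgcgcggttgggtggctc
Cdk1: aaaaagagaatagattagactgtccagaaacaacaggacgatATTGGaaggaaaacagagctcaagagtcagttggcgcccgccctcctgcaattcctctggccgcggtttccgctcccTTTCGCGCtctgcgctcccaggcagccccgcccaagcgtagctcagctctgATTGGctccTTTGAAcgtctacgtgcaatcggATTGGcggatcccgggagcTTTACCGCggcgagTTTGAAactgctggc

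A promoter sequence was matched to 34 of the 45 members, and motifs were counted in windows of 300 bases, from 250 before to 50 after each start. The E2F motif stood in 9 of 14 replication members (64.3%), 4 of 10 G1 members and 1 of 10 mitotic members, against 5.93% of all 27025 genes with a sequence. The CHR motif stood in 8 of 10 mitotic members, 2 of 10 G1 members and 1 of 14 replication members, against 20.2% of all genes. A CCAAT box stood in 25 of 34 members (73.5%), against 41.1% of all genes. Such a match describes letters in a window and not a bound site. The E2F motif stood in the window of Mcm6 and, at the more upstream of its starts only, in that of Mcm7. As given below, Mcm7 was called higher, while Mcm6 had a difference below 0 that did not pass. The Rrm2 window holds a CCAAT box and neither of the other motifs as spelled here.

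Of the 45 members 9 changed with CsA. CsA was compared with DMSO in a linear model fitted with limma over all rows, and a row was called at a Benjamini-Hochberg adjusted p under 0.05. A difference below is always CsA minus DMSO in log2 units, followed by ± and its moderated standard error (SE). Of the members 3 were higher (E2f3, Cdk4 and Mcm7), 6 were lower (Ccnd1, Ccnd3, Cdkn2c, E2f2, Mcm4 and Rrm2) and 36 did not pass. Over all rows 18.6% were called, 9.55% as higher and 9.05% as lower, and 20% of the members is near that share. With the replicate number as a block 5 members were higher and 9 lower, where 28.7% of all rows were called, 15.8% as higher and 12.9% as lower. The members' median difference was -0.11, with a range from -1.77 to 0.78, against a median of 0.04 over all rows. By role 6 of 15 G1 members, 3 of 17 replication members and 0 of 13 mitotic members were called in limma. Among the 13 mitotic members 2 had an unadjusted p under 0.05 in limma, while 5098 of all 16331 rows did, a larger share.

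**Figure D1:**
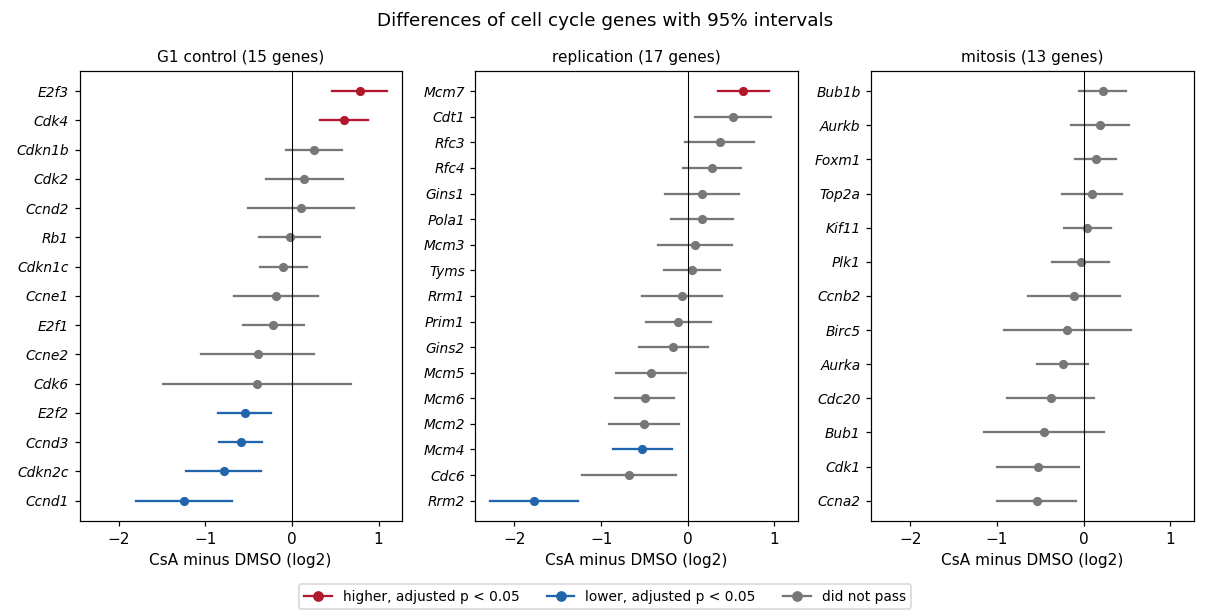
Difference between CsA and DMSO for each of the 45 members, in log2 units on the x axis, with bars for the 95% interval of the limma fit and genes sorted within each role. Rrm2 (-1.77) and Ccnd1 (-1.24) lie farthest to the left, and no mitotic gene passed the adjusted threshold.

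The groups of arrays stood fully apart for 12 of the 45 members. For 3 of them every CsA array was above every DMSO array, as for 19.8% of all rows, and for 9 every CsA array was below, as for 15.3%. In either direction that is 26.7% of the members against 35.1% of all rows. Between same-numbered arrays CsA was above DMSO in all 3 pairs for 10 members, as for 32.8% of all rows, and below in all 3 pairs for 17 members, as for 24% of all rows. The members outside the 9 calls that stood apart were Mcm6, Ccna2 and Cdk1.

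D-type cyclins carry growth signals to the cell cycle, and 2 of the 3 fell. Ccnd1, which encodes cyclin D1, was at 7.87, 6.78 and 7.12 in DMSO replicates 1 to 3 and at 5.85, 6.03 and 6.15 in CsA. Every CsA array lay below every DMSO array, and DMSO replicate 1 was the highest. The difference was -1.24 ± 0.24 (adjusted p = 0.00861), 2.37-fold lower. Ccnd3, which encodes cyclin D3, was at 7.89, 8.08 and 8.15 in DMSO and at 7.44, 7.47 and 7.44 in CsA. Its arrays varied little within a group, and the difference was -0.59 ± 0.11 (adjusted p = 0.00638). Ccnd2, which encodes cyclin D2, was at 9.14, 8.05 and 8.22 in DMSO and at 8.74, 8.29 and 8.71 in CsA. These groups overlapped, and the 95% interval of the difference (0.11) ran from -0.50 to 0.72.

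The kinase partners of the D cyclins did not follow one direction. Cdk4 was at 9.74, 9.80 and 10.01 in DMSO and at 10.41, 10.60 and 10.34 in CsA, a rise of 0.60 ± 0.12 (adjusted p = 0.00982) with all CsA arrays above all DMSO arrays. Without CsA replicate 2 the adjusted p of Cdk4 was 0.0501. Cdk6 was at 7.31, 6.95 and 5.93 in DMSO and at 6.98, 6.77 and 5.24 in CsA. Both arrays numbered 3 were low for Cdk6, and CsA was below DMSO in each pair. Its difference of -0.40 ± 0.48 did not pass (adjusted p = 0.654), while with the replicate block the adjusted p was 0.0402.

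Among kinase inhibitors 1 of 3 members was called. Cdkn2c, which encodes an inhibitor of CDK4 and CDK6, was at 8.43, 7.84 and 7.63 in DMSO and at 7.28, 7.12 and 7.14 in CsA. All CsA arrays lay below all DMSO arrays, with a difference of -0.79 ± 0.19 (adjusted p = 0.0221). Cdkn2c did not pass when replicate 2 of DMSO (adjusted p = 0.0531) or of CsA (0.0788) was left out. Cdkn1b, which encodes p27, differed by 0.25 (95% interval -0.07 to 0.58), and Cdkn1c, which encodes p57, by -0.10 (-0.37 to 0.17).

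E2F factors that activate transcription moved in different directions. E2f3 was at 7.85, 7.73 and 8.22 in DMSO and at 8.72, 8.67 and 8.76 in CsA, a rise of 0.78 ± 0.14 (adjusted p = 0.00558), 1.72-fold. E2f2 was at 5.03, 5.17 and 5.21 in DMSO and at 4.39, 4.83 and 4.56 in CsA, a fall with a difference of -0.54 ± 0.13 (adjusted p = 0.0236). The groups did not overlap for either gene. Leaving out DMSO replicate 2 or 3 gave E2f2 an adjusted p of 0.0845 or 0.0558, leaving out CsA replicate 1 gave 0.0814, and leaving out both arrays numbered 3 gave 0.0724. E2f1 differed by -0.21 (95% interval -0.56 to 0.13).

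The other G1 members did not pass. Rb1, which encodes the retinoblastoma protein, had the smallest difference of the G1 members, -0.02 (95% interval -0.38 to 0.33). The E-type cyclin genes Ccne1 and Ccne2, whose products activate CDK2 at the entry to S phase, differed by -0.19 (-0.67 to 0.30) and -0.40 (-1.05 to 0.25). Cdk2 differed by 0.14 (-0.30 to 0.59). The number of G1 members called lower was 2 without DMSO replicate 2, and the number called higher was 1 without CsA replicate 2.

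**Figure D2:**
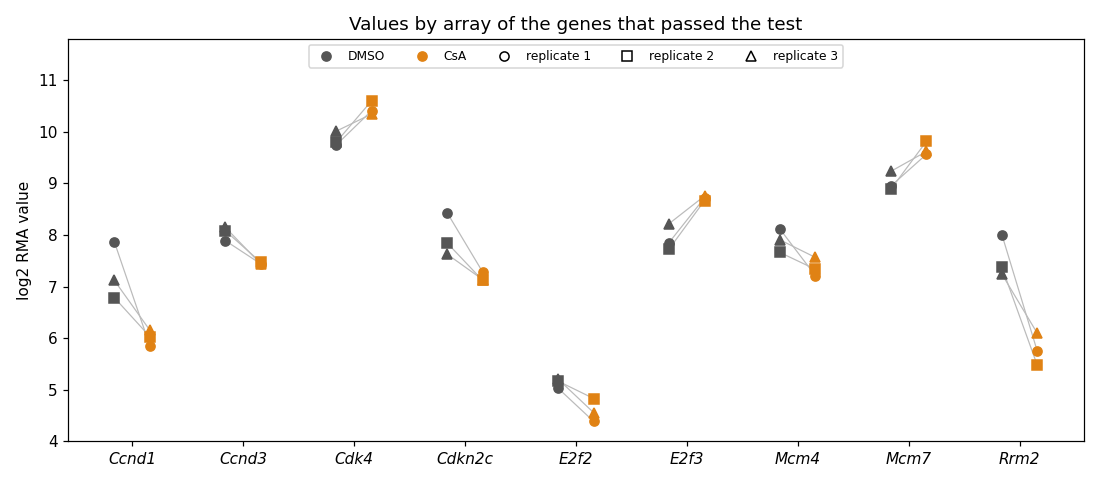
Log2 RMA values (y axis) of the 9 members that passed the test, with DMSO arrays in grey, CsA arrays in orange and lines joining arrays of the same replicate number. Every line of Ccnd1, Ccnd3, Cdkn2c, E2f2, Mcm4 and Rrm2 goes down and every line of Cdk4, E2f3 and Mcm7 goes up.

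The largest difference of the list was in deoxynucleotide supply. Rrm2 encodes the small subunit of ribonucleotide reductase, which makes deoxynucleotides and is normally made in S phase. It was at 8.01, 7.38 and 7.24 in DMSO and at 5.74, 5.47 and 6.09 in CsA. The groups were well apart, and the difference was -1.77 ± 0.22 (adjusted p = 0.00106), 3.42-fold lower. It kept its call in each of the 14 alternative limma fits that tested it. Rrm1, the large subunit of the same enzyme, was at 8.25, 7.94 and 7.52 in DMSO and at 7.99, 8.01 and 7.52 in CsA, overlapping in full, with a difference of -0.06 (95% interval -0.53 to 0.40). Tyms, which encodes thymidylate synthase, was at 3.68 ± 0.15 in DMSO and 3.73 ± 0.23 in CsA (SD, n = 3 each), among the dimmest 20% of rows, where RMA compresses differences.

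The 6 genes of the MCM helicase, which opens DNA at the fork as a ring of 6 different subunits, split. Mcm7 was at 8.95, 8.89 and 9.23 in DMSO and at 9.56, 9.81 and 9.62 in CsA, a rise of 0.64 ± 0.13 (adjusted p = 0.00981) without overlap. Mcm4 was at 8.11, 7.66 and 7.90 in DMSO and at 7.21, 7.33 and 7.56 in CsA, a fall with a difference of -0.52 ± 0.15 (adjusted p = 0.0395), also without overlap. Mcm4 lost its call when replicate 1 or 3 of DMSO (adjusted p = 0.135 and 0.0777) or replicate 1 or 2 of CsA (0.129 and 0.125) was left out. Between same-numbered arrays Mcm7 differed by 0.62, 0.93 and 0.39 and Mcm4 by -0.90, -0.33 and -0.34, so each pair held both directions.

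Of the other MCM genes none passed in limma, where Mcm2, Mcm5 and Mcm6 had an unadjusted p under 0.05, as had 5098 of all 16331 rows. Mcm6 was at 8.42, 8.00 and 8.49 in DMSO and at 7.70, 7.97 and 7.76 in CsA. Its groups stood apart by a narrow gap, with a difference of -0.50 ± 0.15 (adjusted p = 0.0518, and 0.0446 with the replicate block). It passed without DMSO replicate 2 (adjusted p = 0.0234). Mcm2 was at 8.30, 7.94 and 8.55 in DMSO and at 7.57, 7.67 and 8.03 in CsA, with a difference of -0.50 ± 0.18 (adjusted p = 0.0874, and 0.0143 with the replicate block). Its groups overlapped through CsA replicate 3, without which the adjusted p was 0.0397. Mcm5 differed by -0.42 (95% interval -0.83 to -0.02, adjusted p = 0.141, and 0.0331 without DMSO replicate 2), and Mcm3 by 0.08 (-0.34 to 0.51).

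The factors that load the helicase had differences in opposite directions, and neither passed. Cdc6 was at 4.87, 4.31 and 4.62 in DMSO and at 3.41, 3.97 and 4.37 in CsA, with a difference of -0.68 ± 0.24 (adjusted p = 0.0836, and 0.0215 without CsA replicate 3). Like Tyms, Cdc6 was among the dimmest 20% of rows. Cdt1 was at 7.81, 7.60 and 8.28 in DMSO and at 8.13, 8.48 and 8.62 in CsA, with a difference of 0.52 ± 0.19 (adjusted p = 0.0998, and 0.0225 with the replicate block). Without DMSO replicate 3 the adjusted p of Cdt1 was 0.0231. In both genes CsA and DMSO arrays overlapped, while all 3 pairs ran the same way.

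Genes of the replication fork showed small differences. The clamp loader genes Rfc3 and Rfc4 differed by 0.37 (95% interval -0.03 to 0.77) and 0.28 (-0.06 to 0.62), and Rfc3 passed with the replicate block (adjusted p = 0.0231). Gins1 and Gins2, whose products are part of the active helicase, differed by 0.16 (-0.27 to 0.60) and -0.17 (-0.57 to 0.23). Pola1 and Prim1, which encode the catalytic subunits of the polymerase and primase that start each new strand, differed by 0.16 (-0.20 to 0.53) and -0.11 (-0.49 to 0.26). In all, 1 replication member was higher and 2 lower, and with the replicate block 3 were higher and 4 lower. Leaving out DMSO replicate 3 gave 2 higher. The number lower was 1 when replicate 1 or 3 of DMSO or replicate 1 or 2 of CsA was left out, and 4 when DMSO replicate 2 or CsA replicate 3 was.

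**Figure D3:**
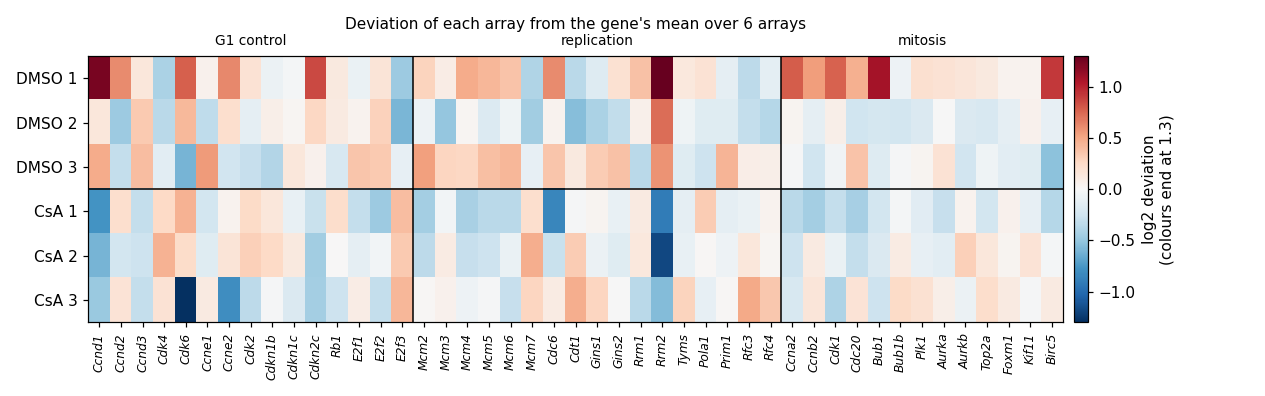
Deviation of each array (rows) from each gene's mean over the 6 arrays (columns, grouped by role), in log2 units, with red for above and blue for below the mean. The columns of Ccnd1 and Rrm2 are red in all 3 DMSO arrays and blue in all 3 CsA arrays, while much of the red among mitotic genes lies in DMSO replicate 1.

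No mitotic gene passed the adjusted threshold in limma, with or without the replicate block. Cyclin A2 and CDK1 were nearest to it. Ccna2 was at 6.72, 5.96 and 5.91 in DMSO and at 5.58, 5.66 and 5.72 in CsA, with a difference of -0.54 ± 0.20 (adjusted p = 0.0999). Cdk1, the kinase that drives mitosis, was at 7.81, 7.12 and 6.99 in DMSO and at 6.73, 6.96 and 6.64 in CsA, with a difference of -0.53 ± 0.21 (adjusted p = 0.117). The groups did not overlap for either gene, but the DMSO mean was raised by replicate 1. Without that array the differences were -0.28 for Ccna2 and -0.28 for Cdk1. With array weights Ccna2 passed (adjusted p = 0.0453).

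DMSO replicate 1 was also the highest of the 6 arrays for 7 of the 13 mitotic members, as it was for 14.2% of all rows. The same array was the highest for 5 of 15 G1 members, 5 of 17 replication members and 17 of all 45 members (37.8%). Bub1, which encodes a spindle checkpoint kinase, was at 4.83 in that array and between 3.48 and 3.59 in the other 5. Birc5, which encodes survivin, was at 5.67 in that array and between 4.23 and 4.87 in the others. Ccnb2, which encodes cyclin B2, was at 5.08 there and between 4.10 and 4.69 in the others. The 95% intervals were accordingly wide for Bub1 (difference -0.46, from -1.16 to 0.23) and Birc5 (-0.19, from -0.92 to 0.55).

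The remaining mitotic members did not pass. Foxm1, a transcription factor for mitotic genes, differed by 0.14 (95% interval -0.10 to 0.38), the spindle motor gene Kif11 by 0.04 (-0.23 to 0.31), and Top2a, which encodes the topoisomerase that untangles chromosomes, by 0.09 (-0.26 to 0.44). The mitotic kinase genes Plk1, Aurka and Aurkb differed by -0.04 (-0.36 to 0.29), -0.24 (-0.54 to 0.05) and 0.19 (-0.15 to 0.53). The checkpoint gene Bub1b differed by 0.22 (-0.05 to 0.49), Ccnb2 by -0.11 (-0.64 to 0.42) and Cdc20, which activates the anaphase-promoting complex, by -0.38 (-0.88 to 0.12). Of the 13 mitotic members 4 were among the dimmest 20% of rows and 12 among the dimmest 50%, so that small differences of these genes could be missed at 3 arrays a group.

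**Figure D4:**
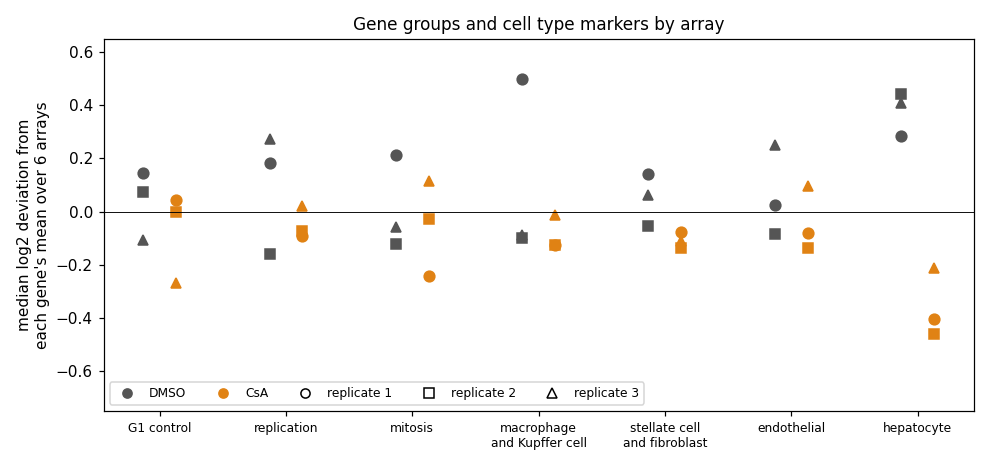
Median log2 deviation from each gene's mean over the 6 arrays (y axis) for the 3 roles of the members and for 4 lists of cell type markers, with DMSO in grey, CsA in orange and symbols for the replicate number. DMSO replicate 1 is the highest array for the G1 members (0.15), the mitotic members (0.21), the macrophage markers (0.50) and the stellate markers (0.14).

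Markers of liver cell types differed between arrays and groups. Of 10 macrophage and Kupffer cell markers 8 were highest in DMSO replicate 1. Of 11 stellate cell and fibroblast markers 6 were, including Acta2 and Col3a1. So were 6 of 8 hepatocyte, 2 of 5 cholangiocyte, 1 of 5 lymphocyte and 0 of 10 endothelial markers, against 14.2% of all rows. Between groups 2 stellate markers were lower (Acta2, with a difference of -1.18, and Tagln, with -1.20) and 2 endothelial markers were lower (Stab2 and Egfl7). In addition 1 cholangiocyte marker was lower (Sox9), and 1 macrophage marker was lower (Vsig4) and 1 higher (Cd14). In either direction 18.2% of the stellate list and 20% each of the endothelial, cholangiocyte and macrophage lists were called, against 18.6% of all rows. All calls of the stellate, endothelial and cholangiocyte lists were lower, where the share of all rows was 9.05%, and each list rests on 1 or 2 calls. With the replicate block 4 of 11 stellate markers were lower, against 12.9% of all rows. Differences were below 0 for 10 of 11 stellate, 9 of 10 endothelial and 3 of 5 cholangiocyte markers. Of 5 lymphocyte markers 0 were called. The log2 of the summed linear levels ran from 8.98 to 9.76 in DMSO and from 8.56 to 8.70 in CsA for the stellate list. It ran from 9.60 to 10.0 and from 10.87 to 10.98 for the macrophage list, where the higher sum came from Cd14 (mean 9.20 in DMSO and 10.70 in CsA). Without Cd14, left out after the values were seen, it ran from 8.19 to 8.71 and from 8.08 to 8.22, and 8 of the 10 markers had a difference below 0 (list median -0.17). For the endothelial list it ran from 9.02 to 9.33 and from 8.81 to 9.0. RMA values have no true zero, so no marker can be called absent. The hepatocyte markers summed to 17.08 to 17.11 in DMSO and 16.60 to 16.69 in CsA, and 6 of those 8 genes were lower. The part of these cell types in the differences of Ccnd1, Rrm2, Ccna2 or Cdk1 was not tested, and in RNA of a whole culture fewer cells of a type and less RNA per cell cannot be told apart.

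Further genes of the same pathways, outside the 45 members, were taken from a list of 161 symbols, of which 148 had a row. Of these 15 were higher, 6 lower and 127 did not pass (14.2% called, against 18.6% of all rows), with a median difference of 0.06. Over all rows 9.55% were called higher and 9.05% lower, the shares against which the counts by function below are to be read. By function the share called in either direction ran from 6.9% of 29 mitotic entry and exit genes to 25% of 12 damage checkpoint genes. With the replicate block 32 were higher and 10 lower (28.4%, against 28.7% of all rows). With each array centred on its median 25 were higher and 4 lower. The number higher was 7 when replicate 2 of either group was left out. The number lower was 1 when replicate 1 of either group or CsA replicate 2 was left out. When DMSO replicate 2 was left out no gene of the list was called lower in limma. In that limma fit 17 were lower at an unadjusted p under 0.05. In the main limma fit 47 of the 148 had an unadjusted p under 0.05 in either direction, beside 5098 of all 16331 rows.

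Upstream in G1, 3 of 17 further genes rose and the other 14 did not pass. Cdkn2b, which encodes the CDK4 and CDK6 inhibitor p15, was at 7.01, 6.50 and 7.40 in DMSO and at 8.17, 8.38 and 8.53 in CsA, a rise of 1.39 ± 0.21 (adjusted p = 0.00273). Its CsA arrays were all above its DMSO arrays, whereas Cdkn2c, of the same inhibitor family, fell. Cdc25a, a phosphatase that activates CDK2, rose by 0.52, and Lin54, the MuvB subunit that binds CHR elements, by 0.44. Cdkn1a, which encodes the inhibitor p21, was at 11.64, 12.24 and 12.18 in DMSO and at 12.32, 12.72 and 12.87 in CsA. The groups did not overlap, and the difference of 0.62 ± 0.19 had an adjusted p of 0.06, and of 0.00306 with the replicate block.

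In licensing and replication, 3 of 38 further genes rose and 2 fell. Dbf4, which activates the kinase CDC7 at origins, was at 8.19, 8.26 and 8.35 in DMSO and at 9.40, 9.57 and 9.04 in CsA, a rise of 1.07 ± 0.15 (adjusted p = 0.00156). Orc2, a subunit of the origin recognition complex, rose by 0.81 (adjusted p = 0.00149) and the chromatin assembly gene Chaf1b by 0.58 (0.0489). Pold4, a small subunit of DNA polymerase delta, fell with a difference of -0.59 (adjusted p = 0.0477), and the clamp loader gene Rfc5 with -0.39 (0.0342). In nucleotide supply 1 of 13 genes was called: Cad, whose product starts pyrimidine synthesis, rose by 0.52.

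In mitotic entry and exit 2 of 29 genes rose. Ccng2, which encodes cyclin G2, a cyclin linked to growth arrest, was at 9.38, 9.51 and 8.88 in DMSO and at 10.88, 10.98 and 9.98 in CsA, a rise of 1.36 ± 0.27 (adjusted p = 0.00888). Both arrays numbered 3 were low for Ccng2, and the pairs differed by 1.498, 1.473 and 1.105. Plk4, a kinase of centriole duplication, rose by 0.80 (adjusted p = 0.00474).

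Among spindle, kinetochore and chromosome genes 3 of 39 rose and 4 fell. Zwint, which encodes a kinetochore protein, was at 9.15, 8.96 and 9.10 in DMSO and at 10.63, 10.79 and 10.90 in CsA, a rise of 1.70 ± 0.12 (adjusted p = 6.21e-05), 3.25-fold. The condensin genes Smc2 and Ncaph rose by 0.62 and 0.53. Anln, which encodes the cytokinesis protein anillin, was at 7.62, 7.36 and 6.13 in DMSO and at 5.74, 5.96 and 5.06 in CsA, 2.73-fold lower (-1.45 ± 0.38, adjusted p = 0.0283). Ect2, which activates RHOA in cytokinesis, fell by 0.96 on the log2 scale, Spc24 of the NDC80 kinetochore complex by 0.79 and Hmmr, a spindle protein and hyaluronan receptor, by 0.40. Among damage checkpoint genes 3 of 12 rose: Hus1 and Rad1, subunits of the checkpoint clamp, by 0.39 and 0.64, and Rad17, its loader, by 0.68.

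**Figure D5:**
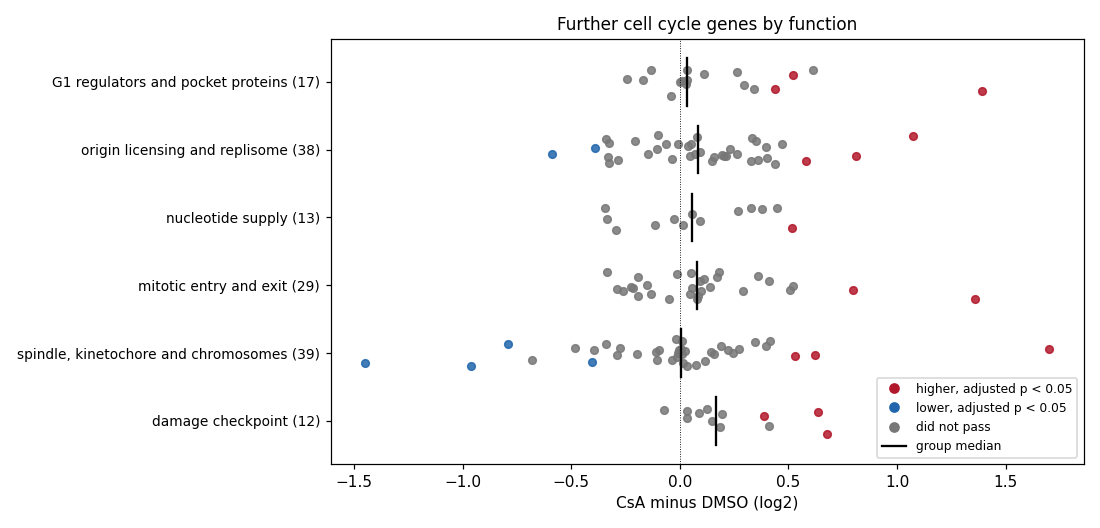
Difference between CsA and DMSO (x axis, log2) for the 148 further genes, each a point, by function, with red and blue for genes that passed the test and a bar for the group median. Zwint (1.70), Cdkn2b (1.39) and Ccng2 (1.36) lie farthest to the right and Anln (-1.45) farthest to the left.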

How the data were processed

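Gene expression was measured on 6 arrays, 3 per group, with groups taken from the sample titles. The authors deposited log2 levels computed by RMA under R 2.11.0, as the submitters' processing notes list. RMA gives all arrays one distribution of probe levels before it summarises them, so a change in total RNA per cell cannot show. Differences near either end of the scale come out too small. Array type and probe set definition are not given in the sources used here, no detection call was used, and the number of arrays limits the precision. The table held 16331 rows, and a symbol came from the platform annotation for 15136 of them. Each member had 1 row.

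Members and lists were chosen with earlier results of these data known. Group differences were fitted with limma 3.58.1 (R 4.3.3), using lmFit and eBayes with no covariate and a two-sided test, adjusted over all rows by Benjamini-Hochberg at 0.05. Means, standard errors and 95% intervals come from that fit, which was tested on simulated data. All members with a row are named, as are all further genes past the threshold, because no function and direction had more than 4, and Cdkn1a was named after its values were seen. Deviations of same-numbered arrays from their group means correlated at 0.398, 0.242 and 0.499, which with the 3 animals of the labels was taken as pairing. This is an inference: DMSO replicate 2 correlated almost as well with CsA replicate 1 (0.221), and the labels do not tie arrays to animals. The code that opens the titles, shared by all CsA arrays, does not show the pairs either. One alternative fit took the replicate number as a block, beside other prior variances, array weights, normalizations, filters on dim rows, thresholds and arrays left out.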

Additional observations from a re-analysis of the deposited data

How the results depend on the processing

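Of the 9 called members 5 (Ccnd1, Ccnd3, E2f3, Mcm7 and Rrm2) kept call and direction in all alternative fits that tested them (15 for each, and 14 for Ccnd1 and Rrm2, which are among the dimmest 50% of rows), and at the same threshold the other 4 (Cdk4, Cdkn2c, E2f2 and Mcm4) lost the call in some fits with arrays left out. At an adjusted p under 0.01 Cdkn2c, E2f2 and Mcm4 did not pass, and with at least 1.5-fold E2f2 and Mcm4 did not. The direction changed for 0 of the 9, and for 14 of the 36 others, none of them past the threshold where it did. Of those 36, 8 passed somewhere and 28 nowhere. With the replicate block 2582 rows were higher, 5 members (3 of them in replication), and 32 further genes, while 4 replication members and 10 further genes were lower. The block changed no member's call apart from Cdk6, Mcm2, Mcm6, Cdt1 and Rfc3. Array weights gave 2927 higher and 2263 lower rows, 5 higher members (3 in replication), 4 lower replication members, 1 lower mitotic member, and 35 higher and 12 lower further genes. At an adjusted p under 0.01, 627 rows were higher and 882 lower, 3 members were lower (2 in G1 and 1 in replication), and 7 further genes were higher and 0 lower, where 14 were lower at an unadjusted p under 0.05. With at least 1.5-fold, 847 rows and 9 further genes were higher and 1 replication member lower. Centring gave 25 higher further genes. Leaving out the dimmest 50% of rows gave 2 lower G1 members, since Ccnd1 and E2f2 were then not tested. Without both arrays numbered 3, 2 replication members were higher and 4 lower, and 27 further genes were higher and 10 lower. Each array left out in turn gave 764 to 1697 higher and 974 to 1522 lower rows, 2 to 4 higher and 4 to 8 lower members, 1 to 2 higher and 2 to 4 lower G1 members, 1 to 2 higher and 1 to 4 lower replication members, 0 called mitotic members, and 7 to 21 higher and 0 to 7 lower further genes. The summed macrophage markers differed by 1.07 on the log2 scale and by -0.21 without Cd14, an alternative chosen after seeing the data. The cause of these shifts was not tested, except that fewer arrays enter where some are left out.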
